A study of Mus musculus with 13 samples.

Results

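Expression of 10 activity-regulated genes was described in mouse cortex: the 9 immediate early genes Fos, Fosb, Jun, Junb, Arc, Egr1, Egr2, Npas4 and Nr4a1, and Bdnf, the gene of brain-derived neurotrophic factor. They were chosen by name, with earlier results of these data known, and all 10 were found among the 20971 genes of the RNA-sequencing table. The libraries came from the cortex of C57BL/6 mice aged 6 months. One group of 6 libraries carried APPPS1, transgenes for mutant human amyloid precursor protein and presenilin that the Thy1 promoter drives in neurons, and 7 libraries carried the same transgenes without a working Apoe gene (APPPS1;Apoe-/-). By the labels both groups carry the amyloid transgenes, and mice without them are not part of the comparison. The series' design counts the libraries as separate mice. Apolipoprotein E carries lipids between brain cells, and its gene was at 581 ± 84.2 RPKM (SD, n = 6) with APPPS1 alone and at 5.44 ± 0.888 RPKM (SD, n = 7) in the knockout group. In the libraries labelled APPPS1;Apoe-/- replicates 2 and 5, App was at 106 and 116 RPKM and Thy1, whose promoter drives the transgenes, at 52.2 and 56.9 RPKM, against at least 176 RPKM of App and at least 172 RPKM of Thy1 in each of the other 11. The levels of both genes in these low-App libraries go against the label, and whether they carry the transgenes was not tested. They are kept under their labels, and results are also given without both. RPKM scale the reads of a gene by its length and by the mapped reads of the library, so levels can be compared between genes. The sources used here give no time of day, handling or order of dissection, conditions to which these genes are known to respond.

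Immediate early genes are transcribed within minutes of synaptic activity, from factors that already lie on their promoters. Calcium entry and the MAP kinase cascade phosphorylate CREB, which binds the cAMP response element, and the ternary complex partners of serum response factor, which bind the CArG box. The products are transcription factors (Fos, Fosb, Jun and Junb of the AP-1 family, the zinc finger factors Egr1 and Egr2, the neuronal factor Npas4 and the orphan nuclear receptor Nr4a1) or act at synapses, as Arc does in the removal of AMPA receptors. Bdnf follows more slowly, from several promoters, and signals through the receptor TrkB. In cortex their mRNA levels are widely used as a trace of recent neuronal activity.

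The promoter windows below were searched for these elements. They are printed for Fos, Egr2 and Nr4a1, which followed the other genes closely once APPPS1 replicate 6 was left out, and for the pair that differed by genotype, Jun and Bdnf. Each gives the 250 bases before a transcription start of RefSeq on GRCm38.p6, 5′ to 3′ on the gene's strand. Capitals mark the core of the cAMP response element, TGACG on either strand, or the CArG box.

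Fos (chr12:85473640-85473889, plus strand): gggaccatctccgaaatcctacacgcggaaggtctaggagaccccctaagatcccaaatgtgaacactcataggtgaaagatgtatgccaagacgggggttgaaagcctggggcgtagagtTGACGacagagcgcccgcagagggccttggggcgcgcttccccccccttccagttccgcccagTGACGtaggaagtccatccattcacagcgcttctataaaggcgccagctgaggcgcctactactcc
Egr2 (chr10:67537619-67537868, plus strand): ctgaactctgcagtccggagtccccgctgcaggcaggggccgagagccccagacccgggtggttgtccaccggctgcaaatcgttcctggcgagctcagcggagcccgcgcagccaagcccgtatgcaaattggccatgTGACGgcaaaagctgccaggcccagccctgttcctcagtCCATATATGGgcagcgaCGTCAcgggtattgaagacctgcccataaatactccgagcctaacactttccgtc
Nr4a1 (chr15:101266596-101266845, plus strand): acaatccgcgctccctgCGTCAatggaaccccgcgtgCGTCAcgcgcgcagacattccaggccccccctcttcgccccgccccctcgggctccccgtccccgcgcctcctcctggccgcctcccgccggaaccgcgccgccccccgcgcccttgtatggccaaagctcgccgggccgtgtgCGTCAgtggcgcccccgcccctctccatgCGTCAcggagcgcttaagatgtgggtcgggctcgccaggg
Jun (chr4:95052223-95052472, minus strand): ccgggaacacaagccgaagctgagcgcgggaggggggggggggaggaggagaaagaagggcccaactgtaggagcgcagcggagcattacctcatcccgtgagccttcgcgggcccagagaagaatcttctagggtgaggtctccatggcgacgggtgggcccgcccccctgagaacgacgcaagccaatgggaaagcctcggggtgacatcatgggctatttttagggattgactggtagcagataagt
Bdnf (chr2:109692186-109692435, plus strand, one of its 7 windows): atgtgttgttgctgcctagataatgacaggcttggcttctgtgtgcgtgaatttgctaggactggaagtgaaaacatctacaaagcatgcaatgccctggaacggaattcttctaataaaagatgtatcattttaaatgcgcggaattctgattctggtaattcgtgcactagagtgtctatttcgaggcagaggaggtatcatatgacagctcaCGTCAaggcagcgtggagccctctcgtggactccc

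The Fos window held 2 TGACG cores, the printed Egr2 window 2 with a CArG box between them, and the Nr4a1 window 4. The printed Bdnf window held 1, at 35 to 31 bases before the start. Egr2 and Bdnf have further windows, and those printed were picked from the ones with TGACG. The Egr2 window from 67535249 held neither element, and that from 67537316 a CArG box without TGACG. No other Bdnf window held either element. Windows of Fosb, Junb and Npas4, not printed, also held TGACG. The Jun window held neither element, which says only that these letters are not in these 250 bases. RefSeq windows were found for 8 of the 10 genes, 18 windows in all, and none was found for Arc or Egr1. TGACG was present in 9 of these 18 windows, from 7 of the 8 genes, and in 17.8% of all 32851 windows of that length. The full element TGACGTCA occurred in 0 of the 18 (1.55% of all windows), the CArG box in 4, all of Egr2 (1.47%), and the AP-1 site TGANTCA in 1, of Bdnf (6.75%). The windows of a gene overlap in part, and a match is a description of the letters.

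All 10 genes passed the filter of a mean of at least 0.5 RPKM, with 13343 genes tested. Averaged over the 13 libraries, Egr1 was the most abundant at 38.9 RPKM, followed by Nr4a1 at 27.5, Arc at 25.1 and Fos at 21.5 RPKM. Bdnf stood at 7.10, Egr2 at 2.79, Jun at 1.94, Junb at 1.87, Fosb at 1.39 and Npas4 at 0.859 RPKM. The neighbours Nr4a1, Arc and Fos, and Jun, Junb and Fosb, lay within each other's spread between libraries. Depth bears on the weak genes: from the transcript length and 28402328 to 77005806 alignments with APPPS1 alone, or 18455493 to 34538031 with the knockout, Npas4 rested on an estimated 23 reads in its weakest library and Junb on 56, whereas Fos, Arc, Egr1, Nr4a1 and Bdnf had at least 730 estimated reads in every library.

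Across the 10 genes, Jun was lower and Bdnf higher in APPPS1;Apoe-/- cortex, and the other 8 did not pass the test. This is 1 gene called lower and 1 higher, where 8.23% of all tested genes were called (4.74% lower and 3.48% higher). The tests were limma's, two-sided, on log2(RPKM + 0.5), with Benjamini-Hochberg adjustment over all tested genes and a threshold of 0.05. Differences are APPPS1;Apoe-/- minus APPPS1, and understate the change of weak genes. The median difference of the 10 was -0.08, against -0.01 for all tested genes, and with the alignments of each library (log2) as a covariate it was -0.43, against -0.01. In that fit, which called 1.51% of all tested genes, none of the 10 passed, while Npas4 differed by -1.01, Arc by -0.65, Junb by -0.62, Egr2 by -0.46 and Fos by -0.39 (limma, the lowest adjusted p of these 5 being 0.112, for Junb). Alignments ran lower in the knockout group, so the fit with this covariate cannot fully separate depth from genotype, and a call lost in it decides nothing between them. Without both low-App libraries Jun alone passed, the median was -0.14, and the other 9 ran from -0.66 for Npas4 to 0.32 for Bdnf, with Nr4a1 at 0.10 and Fos at -0.13. For 0 of the 10 did the groups stand apart without overlap, which 3.72% of all tested genes did. In bulk tissue, fewer cells that express a gene and less of its RNA per cell cannot be told apart.

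**Figure D1:**
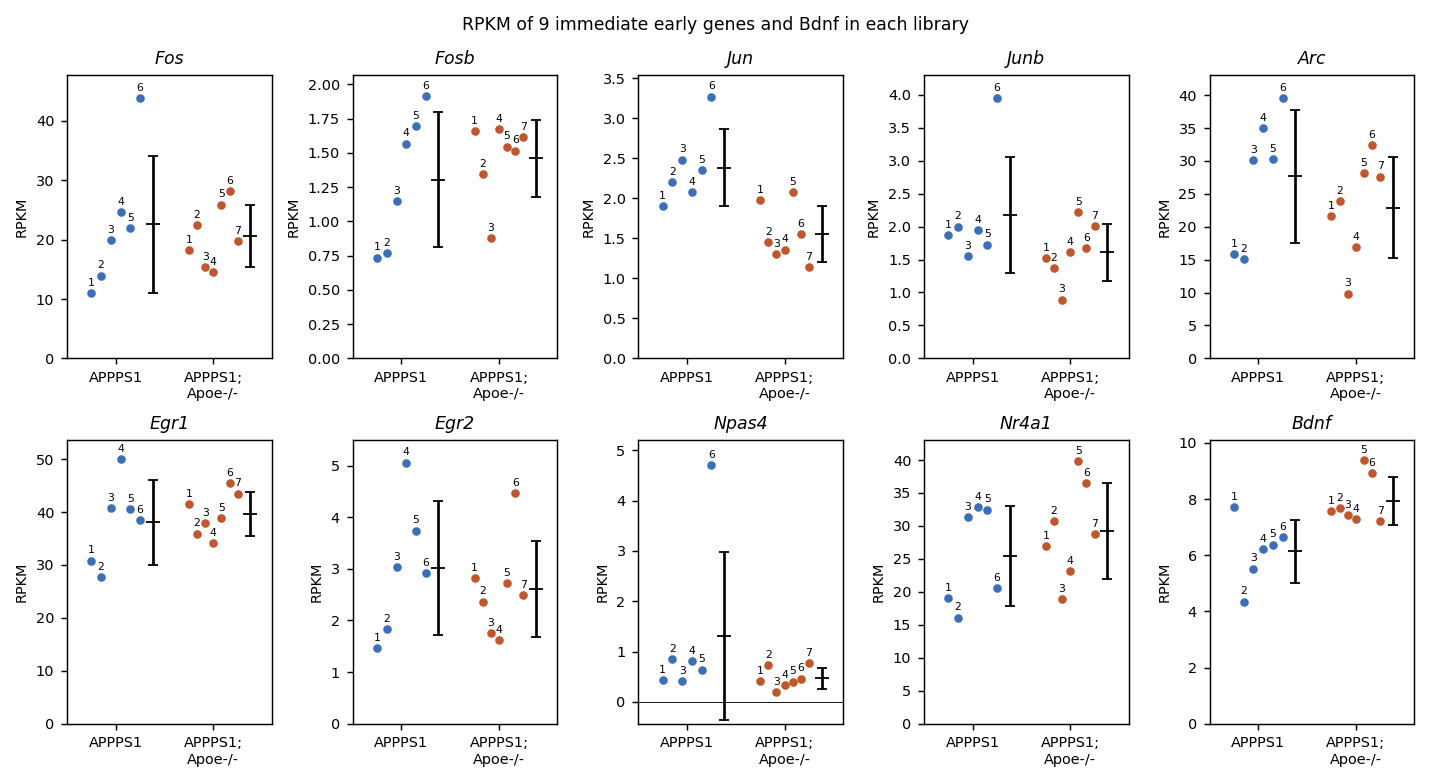
RPKM of each gene (vertical axes, each with its own scale) in the 6 APPPS1 (blue) and 7 APPPS1;Apoe-/- libraries (orange); points carry the replicate number, and the bar with whiskers gives the group mean and SD. APPPS1 replicate 6 stands above its group for Fos, Junb and Npas4, most Jun values of the knockout group lie below those of the other group, and the Bdnf values lie above all but 1 of them.

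Jun, the partner with which Fos proteins form AP-1, was at 1.90 RPKM in the lowest, 2.28 at the median and 3.27 in the highest APPPS1 library. In the knockout libraries it was at 1.14, 1.46 and 2.08 RPKM. Of the 7 knockout libraries 5 lay below every APPPS1 library, and replicates 1 and 5, at 1.98 and 2.08 RPKM, lay within the APPPS1 range. The means were 2.38 ± 0.481 (SD, n = 6) and 1.55 ± 0.352 RPKM (SD, n = 7), 0.711-fold for RPKM + 0.5 with a 95% interval of 0.599 to 0.845. The log2 difference was -0.49 ± 0.12 (SE; limma, Benjamini-Hochberg adjusted p = 0.0170). Leaving out any single library kept the call, with differences from -0.55 to -0.41 and adjusted p from 0.00979 to 0.0405 by limma. With the alignments covariate it was -0.57, with a larger SE of 0.15, and no longer passed (limma, adjusted p = 0.0762). Jun is a minus-strand gene of chromosome 4, from 95049034 to 95052222 of mm10, and 232 of its 3189 exon bases (7.28%) are shared with the antisense gene Junos, which the table does not list. Whether the authors counted by strand is not given in the sources used here.

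Markers of microglia moved with the genotype: 11 of the 15 listed markers were lower in APPPS1;Apoe-/- and 0 higher. Their summed level was 810 to 986 RPKM in the APPPS1 libraries and 292 to 624 RPKM in the knockout libraries, and none of the 15 was at 0 throughout. With the alignments covariate 2 of the 15 were lower, and 10 without both low-App libraries, in which the summed level was lowest. Without these 2 libraries Jun differed by -0.55 ± 0.12 (SE; limma, adjusted p = 0.0175), in a fit that called 5.07% of all tested genes. The part of microglial RNA in the Jun difference was not tested.

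Junb, another AP-1 partner, ran from 1.55 over a median of 1.91 to 3.95 RPKM in the APPPS1 libraries and from 0.890 over 1.61 to 2.22 RPKM in the knockout libraries. Its highest APPPS1 value came from replicate 6, and the other 5 lay between 1.55 and 2.0 RPKM. The difference was -0.32 ± 0.17 (SE; limma, adjusted p = 0.266), and -0.16 without that replicate (limma, adjusted p = 0.522). Junb is a minus-strand gene of chromosome 8, from 84974484 to 84978718 of mm10. It shares 173 of 2301 exon bases (7.52%) with Prdx2 on the other strand, a far stronger gene at 165 ± 11.5 (SD, n = 6) and 165 ± 10.4 RPKM (SD, n = 7). Reads of the shared bases cannot be told apart without strand.

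Fos, the inducible factor most used as an activity marker, ran from 11.1 over a median of 20.9 to 43.9 RPKM in the APPPS1 libraries. In the knockout libraries it ran from 14.5 over 19.7 to 28.2 RPKM, within the APPPS1 range in every library. The group means, 22.6 ± 11.6 (SD, n = 6) and 20.6 ± 5.17 RPKM (SD, n = 7), were close. The difference of -0.03 ± 0.24 (SE; limma, adjusted p = 0.958) had a 95% interval of -0.55 to 0.49. Without APPPS1 replicate 6, the highest library at 43.9 RPKM, its direction turned to 0.19 (limma, adjusted p = 0.622). Fos is a plus-strand gene of chromosome 12, from 85473890 to 85477273 of mm10.

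Fosb, whose long-lived splice form ΔFosB builds up with repeated activity, ran from 0.736 over a median of 1.36 to 1.91 RPKM in the APPPS1 libraries. In the knockout libraries it ran from 0.878 over 1.55 to 1.67 RPKM, and 6 of the 7 stood between 1.34 and 1.67 RPKM. The groups overlapped, with APPPS1 replicates 1 and 2 lowest of all, at 0.736 and 0.771 RPKM. The difference was 0.15 ± 0.16 (SE; limma, adjusted p = 0.594). Gene-level values do not separate the splice forms. Fosb is a minus-strand gene of chromosome 7, from 19302696 to 19310051 of mm10, 386.1 kb from Apoe.

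Egr1 and Egr2, zinc finger factors of synaptic plasticity, showed no called difference. Egr1 ran from 27.6 over a median of 39.5 to 49.98 RPKM in the APPPS1 libraries and from 34.1 over 38.9 to 45.5 RPKM in the knockout libraries, all 7 of which lay inside the APPPS1 range. Its difference was 0.08 ± 0.11 (SE; limma, adjusted p = 0.716), with a 95% interval of -0.16 to 0.32. Egr2 ran from 1.47 over 2.98 to 5.06 RPKM and from 1.62 over 2.49 to 4.47 RPKM. Every knockout library again lay inside the APPPS1 range, and the difference was -0.14 ± 0.22 (SE; limma, adjusted p = 0.744). Egr2 is a plus-strand gene of chromosome 10, from 67535475 to 67542188 of mm10.

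Npas4, a neuron-specific factor induced by calcium entry, was the weakest of the 10. It ran from 0.417 over a median of 0.726 to 4.71 RPKM in the APPPS1 libraries and from 0.186 over 0.418 to 0.769 RPKM in the knockout libraries. APPPS1 replicate 6 alone held the highest value, 4.71 RPKM, and no other library of either group exceeded 0.857 RPKM. The difference was -0.60 ± 0.31 (SE; limma, adjusted p = 0.251), with a 95% interval of -1.27 to 0.07. Without that replicate it was -0.23 ± 0.15 (SE; limma, adjusted p = 0.413). Npas4 is a minus-strand gene of chromosome 19, from 4984355 to 4990316 of mm10.

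Nr4a1, the nuclear receptor also called Nur77, ran from 16.1 over a median of 25.9 to 32.9 RPKM in the APPPS1 libraries and from 18.9 over 28.8 to 39.8 RPKM in the knockout libraries. Replicates 5 and 6 of the knockout group, at 39.8 and 36.5 RPKM, exceeded every APPPS1 library, and replicate 5 is a low-App library. The difference of 0.22 ± 0.19 (SE; limma, adjusted p = 0.513) did not pass. Nr4a1 is a plus-strand gene of chromosome 15, from 101254269 to 101274795 of mm10.

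Arc, whose mRNA travels to active dendrites, ran from 15.1 over a median of 30.2 to 39.6 RPKM in the APPPS1 libraries and from 9.85 over 23.9 to 32.4 RPKM in the knockout libraries. The groups overlapped widely: knockout replicate 3 was lowest of all, at 9.85 RPKM, and APPPS1 replicates 1 and 2 came next, at 15.9 and 15.1 RPKM. The difference of -0.26 ± 0.27 (SE; limma, adjusted p = 0.590) had a 95% interval of -0.82 to 0.31. Arc is a minus-strand gene of chromosome 15, from 74669083 to 74672570 of mm10.

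Bdnf was higher in the knockout group. It ran from 4.35 over a median of 6.30 to 7.71 RPKM in the APPPS1 libraries and from 7.22 over 7.57 to 9.37 RPKM in the knockout libraries. All 7 knockout libraries lay above the APPPS1 median and above 5 of the 6 APPPS1 libraries. The exception was APPPS1 replicate 1, at 7.71 RPKM, which 2 knockout libraries exceeded, replicates 5 and 6 at 9.37 and 8.91 RPKM. The means were 6.14 ± 1.13 (SD, n = 6) and 7.93 ± 0.855 RPKM (SD, n = 7), 1.28-fold for RPKM + 0.5 with a 95% interval of 1.11 to 1.48. The log2 difference was 0.36 ± 0.10 (SE; limma, adjusted p = 0.0388).

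The Bdnf call lay close to the threshold while its direction held in all 27 alternative settings, from 0.25 to 0.42. It passed in 13 of the 27 settings, and in 4 of the 13 fits that left out 1 library, those without APPPS1 replicate 1 or knockout replicate 3, 4 or 7. Without any one of APPPS1 replicates 2, 3, 4, 5 and 6 or knockout replicates 1, 2, 5 and 6, the adjusted p by limma was 0.0518 to 0.0739. Without both low-App libraries the difference was 0.32 (limma, adjusted p = 0.111). With log2 alignments as a covariate it was 0.25 (limma, adjusted p = 0.315). Bdnf is a plus-strand gene of chromosome 2, from 109674700 to 109727007 of mm10, and shares 896 of 6217 exon bases (14.4%) with the antisense gene model Gm45346, which the table does not list.

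Markers of striatum, which borders the cortex in dissection, differed between libraries. The mean log2(RPKM + 0.5) of 14 striatal neuron markers was 4.15 in APPPS1 replicate 3, 3.02 to 3.25 in the other 5 APPPS1 libraries, and 3.31 to 4.04 in the knockout libraries. Of the 14 markers, 1 was called higher, Pde10a, and 0 lower, with a median difference of 0.44, and 3 were higher with the alignments covariate. The marker mean ran higher in the knockout group apart from APPPS1 replicate 3, so a fit with it cannot fully separate it from genotype. With this mean as a covariate, in a fit that called 2.49% of all tested genes, Jun differed by -0.56 (limma, adjusted p = 0.0430) and Bdnf by 0.38 (limma, adjusted p = 0.109). In female libraries only (10, by Xist against Y-linked genes), a fit that called 3.59% of all tested genes gave Jun -0.53 (limma, adjusted p = 0.0469) and Bdnf 0.30 (limma, adjusted p = 0.103). The sources used here give no record of dissection borders.

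**Figure D2:**
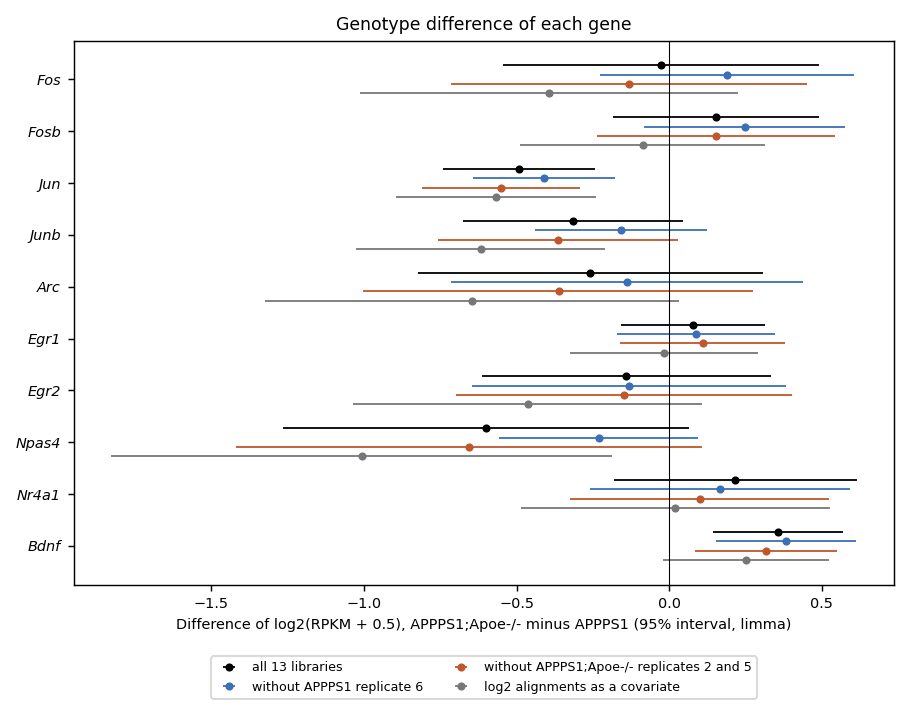
Difference of log2(RPKM + 0.5) between genotypes (horizontal axis, APPPS1;Apoe-/- minus APPPS1) for each gene, with 95% intervals from limma, over all 13 libraries and under 3 other settings. Jun lies below 0 and Bdnf above 0 over all libraries, and the Npas4 difference shrinks from -0.60 to -0.23 without APPPS1 replicate 6.

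Single libraries set much of the pattern, and most of the high values came from APPPS1 replicate 6. That library was the highest of all 13 for 6 genes: Fos, Fosb, Jun, Junb, Arc and Npas4. For the others it was within the range of its group, with Egr1 at 38.5, Egr2 at 2.93, Nr4a1 at 20.5 and Bdnf at 6.63 RPKM. APPPS1 replicate 4 was the highest for Egr1 and Egr2, and knockout replicate 5 for Nr4a1 and Bdnf. At the other end, APPPS1 replicates 1 and 2 and knockout replicate 3 were each the lowest of all for 3 genes, and knockout replicate 7 for Jun. The mean log2(RPKM + 0.5) over the 10 genes was 2.36, 2.37 and 2.23 in these 3 low libraries, 3.28 in APPPS1 replicate 6, and 2.46 to 2.98 in the other 9.

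The low libraries of both genotypes shared some further features and not others. A sex score was the log2 level of Xist, the RNA of the inactive X chromosome, minus the mean log2 level of Y-linked genes. The Y-linked genes were Ddx3y, Eif2s3y, Kdm5d and Uty. This score was above 0 in 10 libraries and below 0 in 3. These were APPPS1 replicate 2 and knockout replicates 1 and 3, but not APPPS1 replicate 1. Knockout replicate 1 was not among the low libraries, with a mean log2 level over the 10 genes of 2.69. Erythrocyte markers summed to 110.5, 297.7 and 161.2 RPKM in APPPS1 replicates 1, 2 and 4 and to 3.70 to 19.4 RPKM in the other 10 libraries, and replicate 4 was high in Egr1 and Egr2. The part of either in the levels of the 10 genes was not tested.

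**Figure D3:**
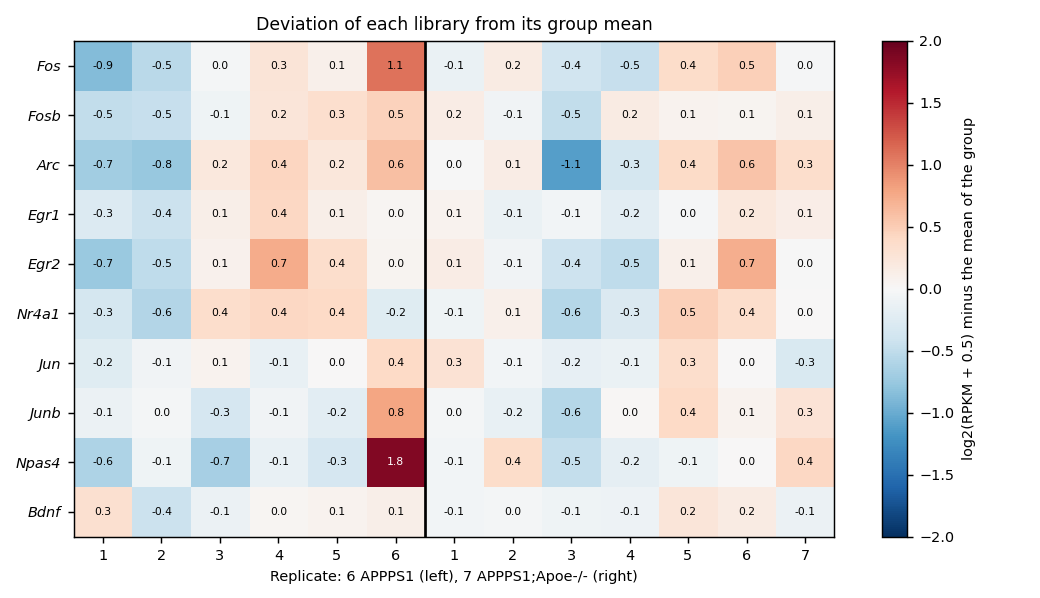
Deviation of log2(RPKM + 0.5) of each gene (rows) from its group mean in each library (columns, 6 APPPS1 left of the line, 7 APPPS1;Apoe-/- right); red is above and blue below the mean. APPPS1 replicates 1 and 2 and knockout replicate 3 are blue for most genes, and APPPS1 replicate 6 is deepest red for Npas4, at 1.85 above its group mean.

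The 10 genes varied more between libraries of one genotype than most genes did. The comparison was with all tested genes, not matched for level or reads. Sampling error of few reads adds to the SD of the weak genes Npas4, Junb, Jun and Fosb, and its part was not tested. The median SD of log2(RPKM + 0.5) over the 10 was 0.429 in the APPPS1 group and 0.311 in the knockout group, against 0.114 and 0.138 over all tested genes. In the APPPS1 group each of the 10 lay above the SD of 89.2% of tested genes, and Npas4 above 99.7%. In the knockout group Arc, Egr2, Nr4a1, Fos, Junb and Npas4 lay above 94.4% or more, Jun and Fosb above 88.1% and 86.9%, while Egr1 and Bdnf, at 55.9% and 51.8%, were near the middle.

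Between genotypes, 9 of the 10 genes had the larger SD in the APPPS1 group, where 34.1% of all tested genes did. Fos stood at 0.68 against 0.35, Npas4 at 0.94 against 0.31, Egr1 at 0.30 against 0.15, Fosb at 0.41 against 0.23 and Bdnf at 0.26 against 0.14. Egr2 stood at 0.55 against 0.40, Nr4a1 at 0.44 against 0.36 and Junb at 0.40 against 0.31. Arc was close at 0.58 and 0.57, and Jun was the exception at 0.23 and 0.24. None of the 10 passed a two-sided permutation test of spread, with 2.99% of tested genes under an unadjusted p of 0.05. That test compared mean absolute deviations from the group median, not SDs. Deviations were taken once from the observed medians and then assigned to groups in all 1716 ways, so its p-values are approximate. The smallest p of the 10 was 0.0781, for Fosb, and the adjusted p was 1 for each. No gene among the 13343 passed after Benjamini-Hochberg adjustment, and the design left little room for it: the smallest p the test can give is 0.000583, and 156 genes would have had to reach it, where 16 did.

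The count of 9 depended on APPPS1 replicate 6: without it 6 of 10 had the larger SD in the APPPS1 group, where 35.7% of tested genes did. The SD then fell from 0.94 to 0.26 for Npas4, from 0.40 to 0.12 for Junb and from 0.23 to 0.12 for Jun, below the 0.31, 0.31 and 0.24 of the knockout group. Without knockout replicate 3 the Fosb SD of that group was 0.09 (permutation test of spread, p = 0.00649, adjusted p = 0.589). With knockout replicates 2 and 5 set aside, 8 of 10 had the larger SD in the APPPS1 group, against 42.2% of tested genes.

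**Figure D4:**
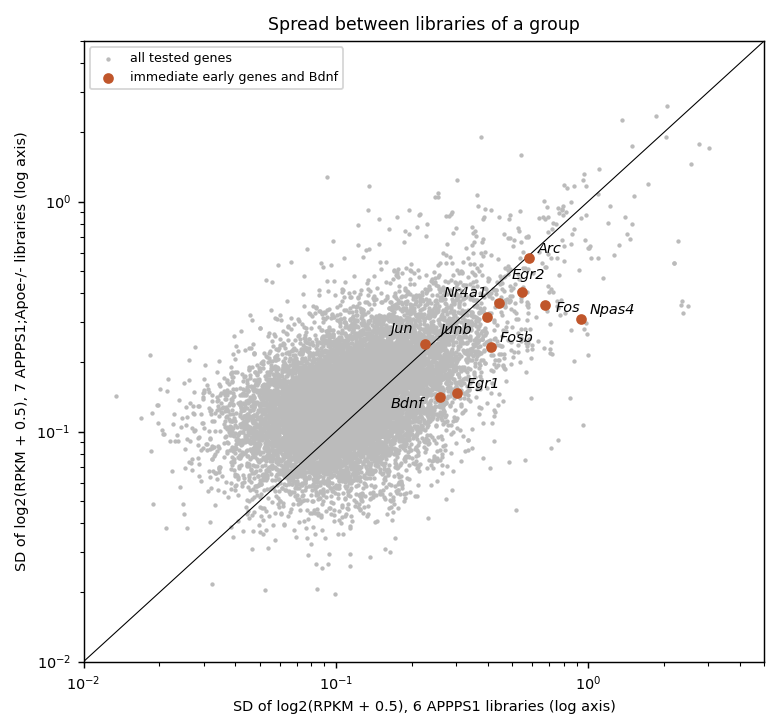
SD of log2(RPKM + 0.5) between the 6 APPPS1 libraries (horizontal) and between the 7 APPPS1;Apoe-/- libraries (vertical) for the 10 genes (orange) and all 13343 tested genes (grey), both axes logarithmic, with the line of equal SD. All 10 lie to the right of most genes, and 9 lie below the line.

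Within genotypes most of the genes tended to be high and low in the same libraries, Bdnf least. After subtraction of each group's mean, Pearson's r was above 0 in 44 of the 45 pairs over 13 libraries and above 0.5 in 23, with a median of 0.519 (Spearman's rho 0.451). The lowest was Npas4 with Nr4a1 (r = -0.0913). The share of such pairs among all tested genes was not computed. The closest pairs were Egr1 with Egr2 (r = 0.886), Fos with Arc (0.838), Fosb with Arc (0.830), Junb with Npas4 (0.814) and Egr2 with Nr4a1 (0.810). Against the mean of the other 9 genes, Arc and Fos followed most closely (r = 0.925 and 0.922) and Bdnf least (0.329). These correlations describe values that share their libraries, with the depth and composition of each, and they carry no test.

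APPPS1 replicate 6 joined some genes and parted others. Without it the median r of the pairs was 0.382 and 17 pairs were above 0.5. Junb with Npas4 then fell from 0.814 to 0.527, and Nr4a1, which was low in that library, rose against the mean of the others from 0.570 to 0.933. Fos with Nr4a1 went from 0.519 to 0.914. The tightest set of genes without that library was thus Arc, Nr4a1, Fos and Egr2, with r of 0.958, 0.933, 0.903 and 0.870 against the mean of the others.

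Genes outside the 10 were ranked by the same correlation with the mean of the 10. The highest were Ercc2, Derl3, Rhoj, Trib1, Noc3l, Med18, Fkbp9, Lman2l, Fam189a2 and Snap29, with r from 0.843 down to 0.801 over 13 libraries. Trib1, a pseudokinase, also stood in a list of activity-induced feedback genes. Of the 17 tested genes of that list, 9 were above 0.5, with a median r of 0.508, Arl4d at 0.783, Spry4 at 0.778 and Dusp6 at 0.771. Of 21 other rapid transcription factor genes 3 were above 0.5, Btg2, Per1 and Egr4, with a median of 0.292. Of 17 induced effector genes 1 was, Cyr61, with a median of 0.161. Over the 13333 other tested genes the median was 0.02 and 4.76% were above 0.5. The order of the lists rested on APPPS1 replicate 6: without it the rapid transcription factor genes had a median of 0.495 with 9 above 0.5, Csrnp1 going from 0.210 to 0.837. The feedback genes then had a median of 0.438 with 8 above 0.5. The effector genes had a median of 0.0566 with 1 above 0.5, Lingo1 and no longer Cyr61, which was at 0.439. Of all other tested genes 8.22% were then above 0.5.

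Other genes of the pathway were compared by genotype, list by list, beside the 3.48% higher and 4.74% lower of all tested genes. Among the 21 tested rapid transcription factor genes 1 was higher, 2 were lower and 18 did not pass. Crem, a CREB relative with a cAMP-induced repressor form, rose from 3.77 ± 0.426 (SD, n = 6) to 4.77 ± 0.360 RPKM (SD, n = 7; limma, adjusted p = 0.0118). Myc fell from 2.20 ± 0.258 to 1.58 ± 0.302 RPKM (limma, adjusted p = 0.0199), and the stress-induced factor Atf3 from 1.04 ± 0.304 to 0.543 ± 0.210 RPKM (limma, adjusted p = 0.0256). The median difference of the list was 0.12. None of its 21 genes passed without both low-App libraries or with the alignments covariate.

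Among the 17 induced effector genes 2 were higher and 0 lower, with a median difference of 0.06. Pcsk1, a protease that processes neuropeptide precursors, rose from 5.40 ± 0.760 (SD, n = 6) to 7.10 ± 1.08 RPKM (SD, n = 7; limma, adjusted p = 0.0324). Inhba, the activin A subunit, rose from 3.48 ± 0.659 to 4.46 ± 0.383 RPKM (limma, adjusted p = 0.0481). Neither passed in the same 2 other fits. Of the 17 feedback genes 0 passed in either direction, with a median of 0.04. Plk2, the strongest of them, stood at 85.9 ± 10.8 (SD, n = 6) and 86.3 ± 11.6 RPKM (SD, n = 7), and Spry2 at 58.2 ± 6.24 and 60.6 ± 5.18 RPKM.

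Upstream, 4 of the 33 genes that carry activity to the nucleus were lower, 0 higher, and 29 did not pass, with a median of -0.07. Mapk3, which encodes the kinase ERK1, fell from 42.0 ± 3.96 (SD, n = 6) to 31.5 ± 3.78 RPKM (SD, n = 7; limma, adjusted p = 0.00498). Camk2b, a calcium/calmodulin-dependent kinase subunit, fell from 79.5 ± 4.20 to 68.5 ± 3.65 RPKM (limma, adjusted p = 0.0125). Prkaca, a catalytic subunit of protein kinase A, and Map2k1, the kinase MEK1, fell by 0.16 and 0.20 (limma, adjusted p = 0.0385 and 0.0478). Mapk3 and Camk2b passed without both low-App libraries, and 0 of the 33 passed with the alignments covariate.

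Downstream of Bdnf, 0 of 15 tested neurotrophin ligand, receptor and processing genes passed in either direction, with a median of 0.02. Ntrk2, the gene of the receptor TrkB, stood at 20.4 ± 1.5 (SD, n = 6) and 21.7 ± 1.02 RPKM (SD, n = 7; limma, adjusted p = 0.290). Sort1, a sorting receptor for proBDNF, stood at 17.9 ± 1.17 and 18.2 ± 1.66 RPKM (limma, adjusted p = 0.900).

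**Figure D5:**
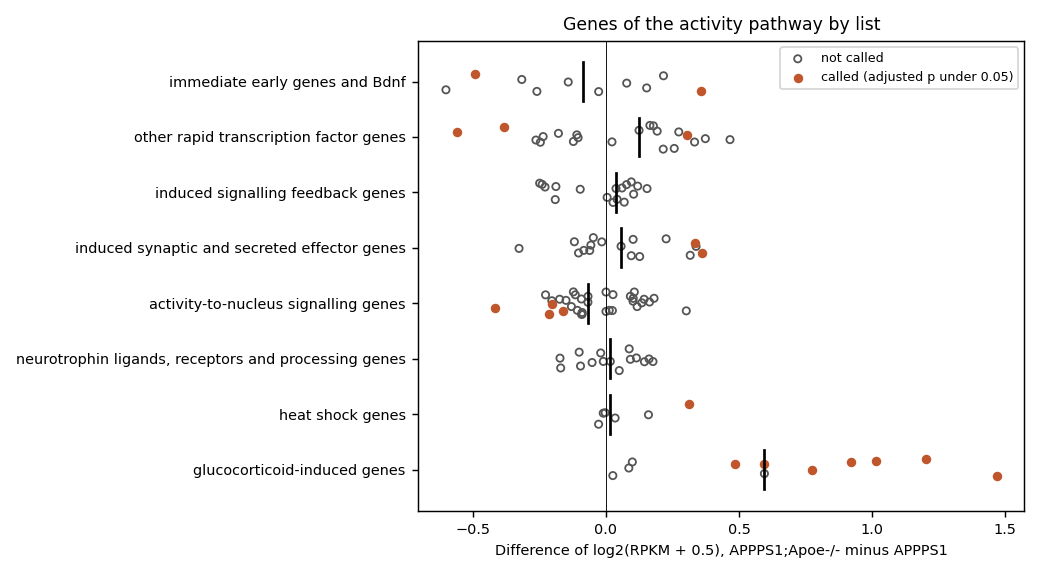
Difference of log2(RPKM + 0.5) between genotypes (horizontal axis, APPPS1;Apoe-/- minus APPPS1) for the tested genes of each list (rows; points are spread vertically for legibility), with called genes filled and a bar at the list's median. Each of the lists down to the neurotrophin genes has its median between -0.08 and 0.12, whereas 7 of 11 glucocorticoid-induced genes are called to the right of it.

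Lists of other inducible genes were set beside them, drawn up with earlier results of these data known. Of 11 glucocorticoid-induced genes 7 were higher, 0 lower and 4 did not pass, with a median difference of 0.60. Tsc22d3 rose from 45.4 ± 10.2 (SD, n = 6) to 104.7 ± 20.0 RPKM (SD, n = 7; limma, adjusted p = 8.77e-05) and Sgk1 from 27.2 ± 10.7 to 53.2 ± 8.16 RPKM (limma, adjusted p = 0.00179). With the alignments covariate 1 of the 11 passed, and without both low-App libraries 7 were higher and 0 lower. Among 6 tested heat shock genes 1 was higher, Hspa8, and 0 lower. The part of either list's condition in the Jun and Bdnf differences was not tested.

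Lists of cell type markers were compared by genotype, which does not test the tissue of origin. Of 10 neuronal markers 1 was lower, Nefh, and 0 higher. Of 12 excitatory neuron markers 1 was lower, Slc17a7, and 1 higher, Lamp5. None of 10 inhibitory neuron markers and none of 5 erythrocyte markers passed in either direction. Of 6 tested hippocampal markers 1 was lower, Wfs1. Among 10 markers each, astrocytes had 1 higher and 3 lower, endothelial cells 1 higher and 1 lower, and oligodendrocytes 4 higher and 0 lower. Without both low-App libraries astrocytes and endothelial cells each had 1 higher and 1 lower and oligodendrocytes 1 higher, neither excitatory marker passed, and Nefh and Wfs1 did. With the alignments covariate 0 markers of these 6 lists passed. No marker of any list was at 0 in every library, the striatal and hippocampal lists included, so presence alone does not tell the tissue. The excitatory neuron markers summed to 411 to 550 RPKM in the APPPS1 group and 431 to 500 RPKM in the knockout group. The striatal markers summed to 410 to 965 and 513 to 1041 RPKM. The summed neuronal markers ran from 3400 to 3983 RPKM in the APPPS1 group and from 3400 to 4282 RPKM in the knockout group.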

How the data were processed

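RNA from the cortex of 13 mice was sequenced after Trizol extraction and Clontech SMARTer preparation, per the labels' protocols. The authors deposited RPKM values of 20971 genes and a count of alignments per library (18455493 to 77005806), and Partek and mm10 are named in the submitters' processing notes. The sources used here do not give the aligner, counting rule, strand use or annotation. RPKM scales by gene length and library depth, and a value carries the sampling error of its reads. The genotype in the table matched the labels for 13 of 13 libraries. p-values measure the spread between these libraries, which the series' design counts as separate mice.

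The 13343 genes that averaged 0.5 RPKM or more were tested on log2(RPKM + 0.5) with limma 3.58.1 in R 4.3.3, with a mean-variance trend and genotype as the only term, and Benjamini-Hochberg adjustment. Spread was compared by the mean absolute deviation from the group median. The permutation test assigned these deviations, fixed beforehand, to groups in all 1716 splits. Correlations used values with each group's mean subtracted. The 10 genes, the gene lists and the settings were chosen with earlier results of these data known. Named beside the 10 genes are Apoe, App and Thy1, in each list the called genes of smallest adjusted p, 4 at most (otherwise the 2 strongest), not all of which are printed, and the 10 genes most alike; Prdx2 and the genes whose correlation with the 10 is printed were chosen after their values were seen. Other settings were pseudocounts of 0.1 and 1, filters, scalings, variance models, weights, covariates, and leaving out libraries; fits to female libraries and correlations without single libraries were added later. Positions are those of GENCODE mouse release M21 (mm10), and promoter sequences are RefSeq's on GRCm38.p6. Reads behind a value were estimated as RPKM times the kilobases of the longest coding transcript and the library's alignments. The code was tested on simulated data. Tables and figures were made with matplotlib 3.10.9, scipy 1.17.1, numpy 2.4.6 and pandas 2.3.3 under Python 3.11.15.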

Additional observations from a re-analysis of the deposited data

Results flagged for a closer look

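In 4 of the 20 group and gene combinations of the 10 genes, 1 library stood apart from the rest of its group by Dixon's criterion, which chance alone meets in about 1 of 20 groups. Of all tested genes, 5.80% met it among APPPS1 libraries and 6.27% among knockout libraries. Npas4 reached 4.71 RPKM in APPPS1 replicate 6, whereas the other 5 of its group lay between 0.417 and 0.857 RPKM. Junb reached 3.95 RPKM in the same library, and 1.55 to 2.0 RPKM in the remaining 5. That library stood apart on the high side in 0.390% of all tested genes, and its alignments (33805065) were within the range of its group. Fosb was at 0.878 RPKM in knockout replicate 3, and the other 6 stood between 1.34 and 1.67 RPKM. Egr2 was at 4.47 RPKM in knockout replicate 6, with 1.62 to 2.82 RPKM in the remaining 6.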

How the results depend on the processing

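Of the 10 genes, 2 were called in the comparison of genotypes, and 1 was called with no filter on low values, with the striatal marker covariate, without both low-App libraries and in female libraries only; the gene kept was Jun each time. With the alignments covariate 0 were called, and leaving out single libraries gave 1 to 2. Of all tested genes 1098 were called, 202 with the alignments covariate, 332 with the striatal marker covariate, 677 without both low-App libraries, 479 in female libraries only and 711 to 1594 without single libraries (711 without APPPS1 replicate 6). Small differences changed sign without being called: Fosb to -0.0867 and Egr1 to -0.0176 with the alignments covariate, Egr1 to -0.0111 in female libraries only and Fos to 0.0283 with a sex score as covariate. Without single libraries Egr1 ran from -0.0075 to 0.16, Egr2 from -0.29 to 0.0080 and Fos from -0.20 to 0.19. The cause was not tested. In the filter at a mean of 1 RPKM Npas4 was not tested, being weaker. The count of genes with the larger SD in the APPPS1 group ran from 6 to 10, and the median r of the pairs from 0.382 to 0.572. No paired analysis was possible because the replicate numbers are only names given in accession order. Depth limits Npas4, Junb, Jun and Fosb, which rest on the fewest reads.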

Other observations

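Ercc2, a helicase of transcription factor IIH and DNA repair, was the gene most alike to the mean of the 10 within genotypes (r = 0.843, n = 13) and also differed between genotypes. It was at 1.12 to 1.71 RPKM in the APPPS1 libraries and at 0.484 to 0.905 RPKM in the APPPS1;Apoe-/- libraries, so that the groups did not overlap, as for 3.72% of all tested genes. The log2 difference was -0.73 (limma, Benjamini-Hochberg adjusted p = 0.000237). It was highest in APPPS1 replicate 6, as 6 of the 10 genes were, and lowest in APPPS1;Apoe-/- replicate 3, as 3 of them were. It is a plus-strand gene of chromosome 7, from 19382010 to 19395694 of mm10, 300.4 kb from Apoe and 72.0 kb from Fosb, and overlaps Klc3 and Gm26852 on the other strand. It was singled out after its values were seen, and the part of its position beside the deleted gene was not tested.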
